A study of Mus musculus with 6 samples.

Results

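Solute carriers are the membrane proteins that move sugars, amino acids, vitamins, nucleosides, organic ions and metals across cell membranes, and their genes are numbered by family (Slc5a9 is member 9 of family 5). The genes described here are all those with such a symbol in the authors' deposited table of genes that differed between mouse small-intestinal enteroids treated with interleukin-22 (IL-22) and untreated controls. They were 32 of the 690 listed genes and came from 20 of the 49 solute carrier families annotated in the mouse. Of the 32, 8 were higher and 24 lower with IL-22. Each gene was placed with a substrate by its family number, and where a single gene is known to carry something else this is said beside it.

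Enteroids are organoids grown from intestinal crypts, here of C57BL/6J mice without necrotizing enterocolitis. After 4 days of differentiation in all wells, recombinant mouse IL-22 was added to the treated wells, which were kept with it for 24 hours. The control group was 4 untreated wells from 2 mice (1 library each), and the IL-22 group was 2 wells from 1 mouse. The dose is 2 ng/ml in the labels but 100 ng in the table's header, and the mice are given as 6 weeks old in one label, whereas the protocol names adults of 8 weeks and neonates of 7 days. Wells of a mouse are technical replicates per the labels. The control spread therefore mixes wells and 2 mice, and the IL-22 spread is that between wells of 1 mouse. The p-values do not measure the spread between treated animals. With 1 treated mouse, a difference made by IL-22 cannot be told apart here from one particular to that mouse. The control libraries held 36600000, 35200000, 27400000 and 22600000 reads and the IL-22 libraries 32500000 and 29900000.

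In the absorptive cells of the small intestine, carriers of the brush border take up solutes from the lumen, most of them coupled to sodium or protons, and carriers of the basolateral membrane release them towards the blood. The sodium/glucose family (Slc5), the neutral amino acid family (Slc6) and the facilitative hexose family (Slc2) are the textbook examples. IL-22 is a cytokine of lymphoid cells that acts on epithelial cells through STAT3, a transcription factor that binds the spaced palindrome TTCNNNGAA.

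Values are in RPM, the number of a gene's reads for every 1000000 reads in its library. The authors' deposited table gives group means and standard errors of the mean (SEM), and the value of each library was recovered from them. Control values are given from the deepest to the shallowest library, and IL-22 values with the deeper library first. Which control library belongs to which mouse or well is not known. For Slc6a19, Slc2a2 and Slc27a2 only the control mean could be given, and the other 29 genes had exactly 1 set of whole reads that matched. A gene was called when it differed at least 2-fold with an adjusted p under 0.05 in the authors' deposited table. All 690 listed genes meet this rule because the authors selected them so, and the calls of single genes are a property of the list.

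The shallowest control library stood apart for the genes that were lower with IL-22. It was the lowest control in 14 of the 21 lower carriers with recovered values (66.7%), at a median of 0.807 of the control mean. The same library was lowest in 179 of 345 lower genes over the whole list (51.9%), at a median of 0.912 of the mean. Among the 8 higher carriers it was lowest in 3, at a median of 0.938 of the control mean. Over the whole list it was lowest in 48 of 232 higher genes (20.7%), at a median of 1.068 of the mean. The enterocyte genes Lct, the lactase, and Treh, the trehalase, were lowest in that library too, at 24.9 RPM beside 35.5 in the deepest control and at 34.2 RPM beside 45.7. Their part, and that of depth, in the carrier values was not tested. Without that library the median decrease of the 21 genes was 4.18-fold instead of 3.80-fold, and 20 of 21 lower and 8 of 8 higher genes kept their call, Slc46a1 being the exception. Of all listed genes with recovered values, 334 of 345 lower and 223 of 232 higher genes kept theirs. The adjustment covered only these genes, which the authors had already selected.

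**Figure D1:**
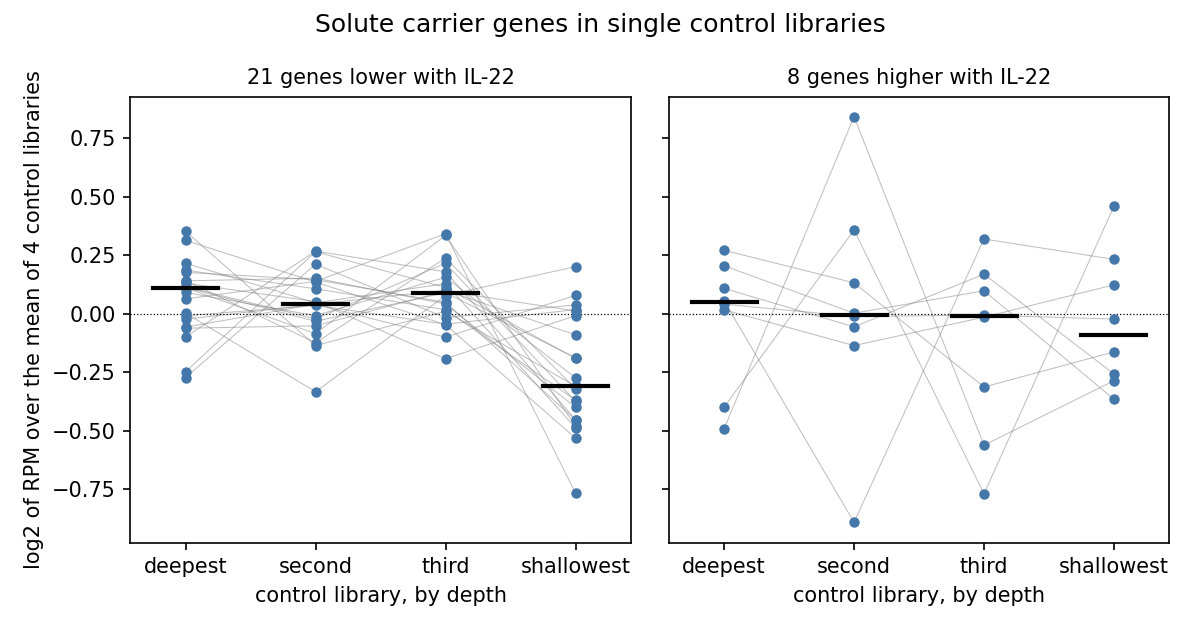
Value of each control library relative to the control mean (log2, vertical axis) for the carriers with recovered values, by library from deepest to shallowest; points are genes joined by thin lines, bars are medians, and the panels split the 21 lower from the 8 higher genes. The shallowest library lies below the others for most of the lower genes, with a median log2 of -0.31.

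Of the 32 genes, 5 pairs lie next to each other in the genome, and the promoters of the most changed pair are shown first because its members moved together. Slc5a4a and Slc5a4b lie side by side on chromosome 10, and their 250 bases before and 50 after the annotated start read as follows in RefSeq (GRCm38.p6). The capitals mark TGATCATTAA, the longest run the 2 sequences share, which was chosen after the sequences were seen and lies just downstream of the annotated start in each.
Slc5a4a, chr10:76147201-76147500, plus strand: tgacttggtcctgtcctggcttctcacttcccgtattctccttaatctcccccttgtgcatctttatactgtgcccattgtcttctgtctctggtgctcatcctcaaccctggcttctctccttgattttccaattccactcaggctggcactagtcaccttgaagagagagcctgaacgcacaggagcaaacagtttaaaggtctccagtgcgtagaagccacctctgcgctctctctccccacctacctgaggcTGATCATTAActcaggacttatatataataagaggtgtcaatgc
Slc5a4b, chr10:76110969-76111268, minus strand: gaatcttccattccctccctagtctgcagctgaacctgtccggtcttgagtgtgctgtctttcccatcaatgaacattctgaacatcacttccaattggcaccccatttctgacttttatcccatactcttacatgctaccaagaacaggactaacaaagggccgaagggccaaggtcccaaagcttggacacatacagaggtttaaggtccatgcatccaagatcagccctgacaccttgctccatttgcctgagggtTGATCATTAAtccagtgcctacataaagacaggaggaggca
The run of 10 bases was found on either strand in 12 of 27025 genes with a promoter in the table (0.0444%). Of the 32 carriers, 25 had a promoter there. The STAT letters TTCNNNGAA, which read the same on both strands, were found in 2 of these 25, Slc17a1 and Slc17a3, beside 9.55% of all 27025 genes. Both genes are lower with IL-22 and lie next to each other on chromosome 13. Their sites are shown with the STAT letters in capitals.
Slc17a1, chr13:23870124-23870152, plus strand: ggccatttggTTCCCAGAAggttctagtc
Slc17a3, chr13:23839286-23839314, plus strand: gcccacatagTTCAAAGAAgcaaaagaaa
No carrier promoter matched the HNF1 motif or CAAAGTCCA (HNF4) exactly on either strand, as 0.47% and 0.555% of all genes did. Near matches were not searched for. Read on the other strand, the run shared by Slc5a4a and Slc5a4b, with the base after it, comes close to the HNF1 motif without matching it. The likeness is closer in Slc5a4a than in Slc5a4b. The factors' names follow textbook motifs, and a match or its lack in this window is a description only.

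Among the 32 carriers, 24 (75%) were lower and 8 (25%) higher, beside 61.3% lower and 38.7% higher over all 690 listed genes. The lower carriers had a median decrease of 3.56-fold, beside 2.70-fold for all lower genes, and the higher carriers a median increase of 2.72-fold, beside 3.15-fold. At least 4-fold lower were 8 carriers, beside 13.8% of all listed genes, and 1 carrier was at least 4-fold higher, beside 13.2%. When the adjustment was widened to all 21951 protein-coding genes, Slc5a9 stayed higher (adjusted p = 0.00802), beside 13.6% of listed genes. Slc14a1 (adjusted p = 0.0186) and Slc17a4 (adjusted p = 0.0433) stayed lower under the same adjustment, beside 7.97%. In all 29 carriers with recovered values both IL-22 libraries lay beyond all 4 controls, as they did in 577 of 577 listed genes with recovered values, and an exact permutation of 4 and 2 libraries cannot give a p below 0.0667. With unequal variances in place of the pooled variance, Slc5a9 alone of the 8 higher carriers and 22 of the 24 lower carriers kept an adjusted p under 0.05. Over the whole list 122 of 267 higher and 368 of 423 lower genes did. The libraries are of whole cultures, in which fewer cells of a type and less RNA per cell cannot be told apart.

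Counted by family number, the share of genes that were listed differed between substrate groups. GENCODE M21 annotates 371 solute carrier genes, of which the 32 are 8.63%. The 690 listed genes correspond to 3.14% of the number of protein-coding genes. No test of the difference was made. Listed were 7 of 34 sugar-family genes, 5 of 14 organic anion genes, 3 of 12 vitamin genes, 2 of 7 nucleoside genes and 1 of 2 urea genes. Of the larger groups, 4 of 64 amino acid carriers (6.25%), 2 of 36 organic cation carriers (5.56%), 3 of 59 ion carriers (5.08%), 2 of 47 mitochondrial carriers (4.26%) and 1 of 33 metal carriers (3.03%) were listed. Single genes were listed of the 14 monocarboxylate carriers and of the 15 lipid and bile acid carriers. None of 28 nucleotide sugar and acyl-CoA carriers or of 5 peptide carriers was listed. The totals were counted by family number too, so the shares depend on that grouping and many rest on few genes. Slc22a13, whose human product exchanges organic anions, stands among the organic cation carriers. A gene absent from the list was not analysed here, and its absence does not show that it was unchanged.

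**Figure D2:**
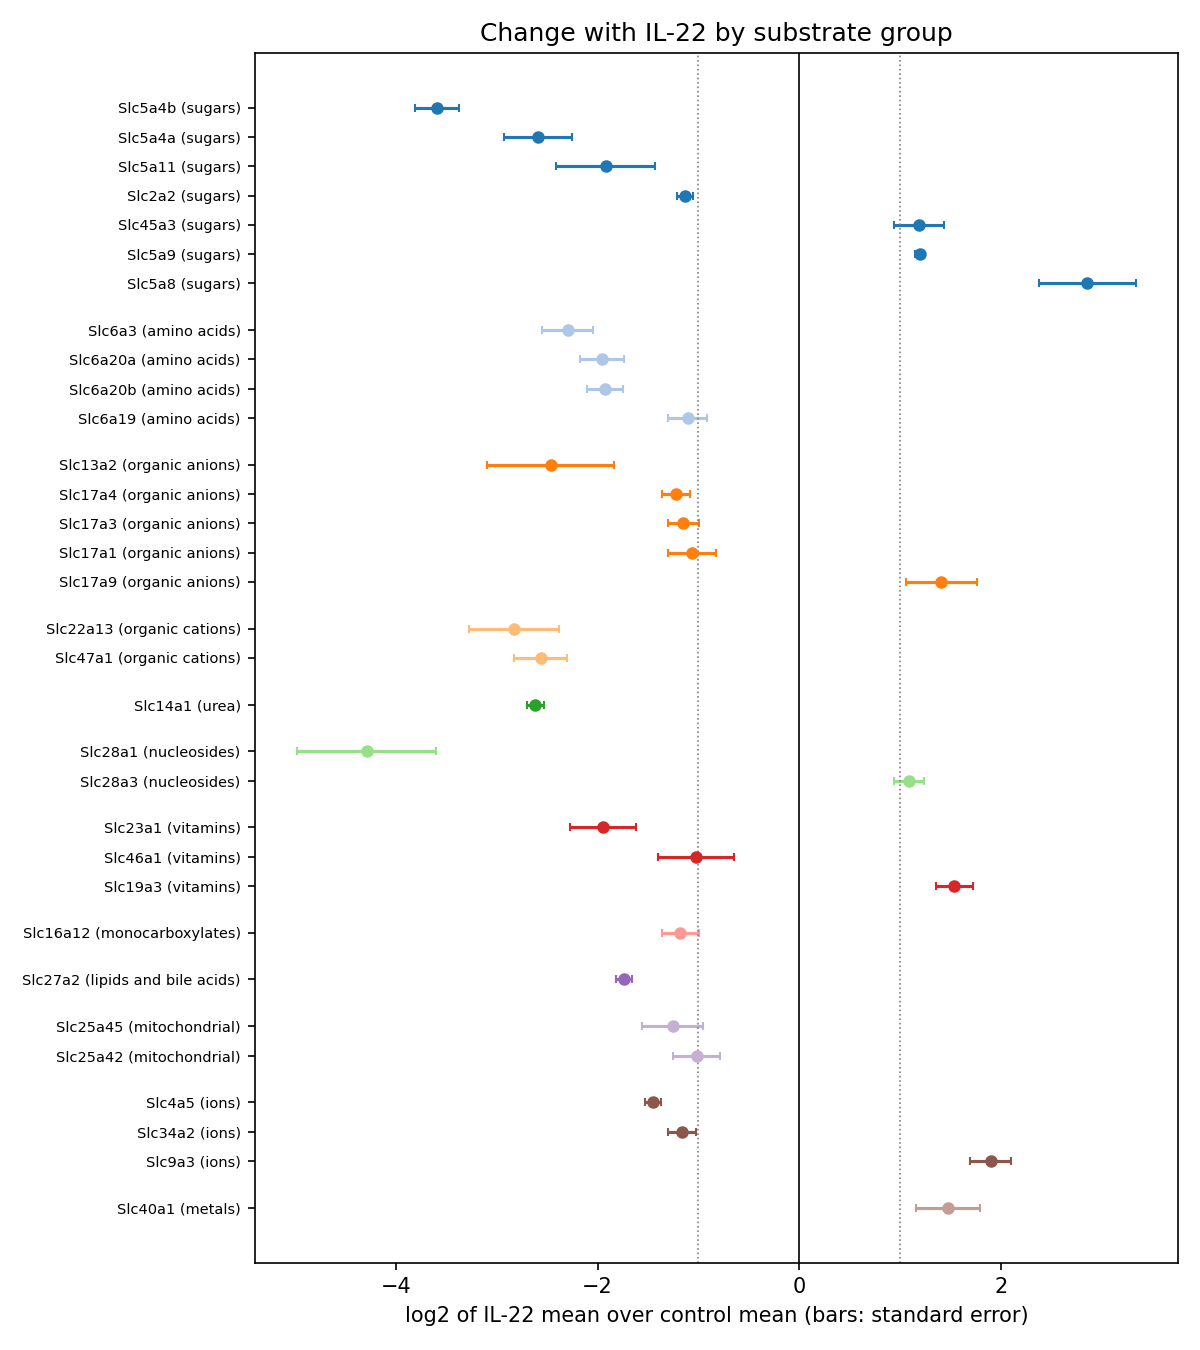
Log2 ratio of IL-22 to control for the 32 solute carriers (horizontal axis, bars are the standard error propagated from the deposited SEMs), arranged and coloured by substrate group, with dotted lines at a 2-fold change. Slc28a1 at -4.29 and Slc5a4b at -3.60 lie lowest and Slc5a8 at 2.86 lies highest.

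The sugar families held genes of both directions, 3 higher and 4 lower. The largest decrease was that of Slc5a4b (Entrez 64454), one of the mouse counterparts of the human gene for SGLT3, a sodium-coupled protein that in humans senses glucose. It stood at 56.7, 50.4, 53.4 and 34.8 RPM in the controls and at 4.50 and 3.58 RPM with IL-22. Every IL-22 value was far below the lowest control. Slc5a4b was 12.1-fold lower per the authors' deposited table (log2 -3.60 ± 0.22, adjusted p = 0.00597).

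Its neighbour and paralog Slc5a4a (Entrez 64452) was much less abundant, at 1.80, 1.90, 2.19 and 1.02 RPM in the controls and 0.339 and 0.234 RPM with IL-22. The shallowest control was the lowest by a wide margin and still lay above both IL-22 libraries. Slc5a4a was 6.03-fold lower per the authors' deposited table (adjusted p = 0.0199), from 216 reads in the controls and 18 with IL-22, and the 95% counting interval of the count ratio (summed reads per depth) ran from 3.79 to 10.6. Its call was lost when either IL-22 library, the deepest control or the second deepest control was left out. Of the 31-base words of Slc5a4a, 1.98% also occur in Slc5a4b.

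Slc2a2 (Entrez 20526, chromosome 3) encodes GLUT2, the facilitative carrier that passes glucose, galactose and fructose across the basolateral membrane. In the authors' deposited table its control mean was 128.2 ± 7.00 RPM and its IL-22 mean 58.4 ± 0.101 RPM, 2.20-fold lower (adjusted p = 0.00508). The IL-22 libraries held 58.3 and 58.5 RPM and were nearly equal.

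Slc5a11, a sodium-coupled carrier of myo-inositol, stood at 9.57, 9.65, 8.94 and 6.58 RPM in the controls and at 3.05 and 1.54 RPM with IL-22. The IL-22 libraries differed from each other about as much in proportion as the lowest control did from the higher IL-22 value. It was 3.78-fold lower per the authors' deposited table (log2 -1.92 ± 0.49, adjusted p = 0.00803).

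The other 3 listed members of these families rose. Slc5a9 (Entrez 230612, chromosome 4) encodes a sodium-coupled carrier of mannose and glucose, and had the tightest controls of all 29 genes, at 16.2, 15.7, 15.7 and 15.5 RPM. With IL-22 it stood at 35.1 and 37.3 RPM. The groups were far apart against that spread, and the gene was 2.29-fold higher per the authors' deposited table (log2 1.20 ± 0.05, adjusted p = 0.000248), the smallest adjusted p of the 32.

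Slc5a8 (Entrez 216225, chromosome 10) belongs to the same family by number, but its product takes up monocarboxylates such as lactate and butyrate. It stood at 0.191, 0.482, 0.182 and 0.221 RPM in the controls and at 1.57 and 2.34 RPM with IL-22. One control, the second deepest library, was well above the other controls and still below both IL-22 libraries. The increase was 7.27-fold in the authors' deposited table (log2 2.86 ± 0.48, adjusted p = 0.00528), the largest of the 32. It rested on 34 reads in the controls and 121 with IL-22, and the 95% counting interval of the count ratio ran from 4.72 to 10.5.

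Slc45a3, of a family named for proton-coupled sugar transport, stood at 0.410, 0.369, 0.401 and 0.442 RPM in the controls and at 1.08 and 0.770 RPM with IL-22. Both IL-22 values were above the 4 closely spaced controls. It was 2.28-fold higher per the authors' deposited table (adjusted p = 0.00828), from 49 and 58 reads, and its call was lost without the deeper IL-22 library. In Slc45a3, 12.6% of the 31-base words are shared with the overlapping gene model Gm29103 on the same strand.

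All 4 listed amino acid family genes were lower, and all belong to family 6. Slc6a19 (Entrez 74338, chromosome 13) encodes the main brush-border carrier of neutral amino acids. In the authors' deposited table its mean was 117.5 ± 10.0 RPM in the controls and 54.6 ± 5.69 RPM with IL-22, which is 2.15-fold lower (adjusted p = 0.0166). The IL-22 libraries held 60.2 and 48.9 RPM. Its call was lost without either IL-22 library. Leaving out 1 control in the least favourable way its means allow would bring it under 2-fold, at a log2 ratio of -0.98.

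Slc6a20a (Entrez 102680) and Slc6a20b (Entrez 22599) are neighbours on chromosome 9 and mouse counterparts of the human gene for the imino acid carrier SIT1, which takes up proline. Slc6a20a stood at 36.8, 33.5, 39.5 and 26.2 RPM in the controls and at 9.83 and 7.66 RPM with IL-22. Slc6a20b stood at 9.60, 8.48, 7.48 and 5.34 RPM in the controls and at 2.13 and 1.94 RPM with IL-22. The shallowest control was the lowest for both, and neither gene's groups overlapped.

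The decreases were 3.89-fold for Slc6a20a (adjusted p = 0.00688) and 3.80-fold for Slc6a20b (adjusted p = 0.0156) in the authors' deposited table, and the call of Slc6a20b was lost without either IL-22 library. Of the 31-base words of Slc6a20a, 19.5% also occur in Slc6a20b, and how reads from them were counted is not known. A further 1800 exon bases of Slc6a20b are covered by Sacm1l on the opposite strand, and no source used here says whether the counting took strand into account.

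Slc6a3 (Entrez 13162, chromosome 13) encodes the dopamine transporter, an amine carrier of the amino acid family by number. It stood at 7.14, 6.75, 6.35 and 4.86 RPM in the controls and at 1.48 and 1.07 RPM with IL-22. Both IL-22 libraries were well under the lowest control. The decrease was 4.92-fold in the authors' deposited table (log2 -2.30 ± 0.26, adjusted p = 0.00518).

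Slc14a1 (Entrez 108052, chromosome 18), the gene of the urea channel UT-B, was the only listed gene of the urea family. It stood at 14.7, 15.7, 16.4 and 14.3 RPM in the controls and at 2.37 and 2.61 RPM with IL-22. The libraries of each group lay close together, the highest control at 1.14 times the lowest and the higher IL-22 library at 1.10 times the other. It was 6.13-fold lower per the authors' deposited table (log2 -2.62 ± 0.08, adjusted p = 0.000582), the smallest adjusted p among the lower carriers.

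The organic cation families held 2 genes, both lower. Slc47a1 (Entrez 67473, chromosome 11) encodes MATE1, which exports organic cations in exchange for protons. It stood at 10.3, 8.60, 11.1 and 7.51 RPM in the controls and at 1.32 and 1.84 RPM with IL-22. Each control was several times the higher IL-22 value, and the decrease was 5.92-fold in the authors' deposited table (adjusted p = 0.0056).

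Slc22a13 (Entrez 102570, chromosome 9) stands here by its family number, although its human product is known for exchanging organic anions such as urate and nicotinate. It stood at 1.91, 1.87, 1.75 and 1.24 RPM in the controls and at 0.308 and 0.167 RPM with IL-22. Both IL-22 libraries were far below the lowest control, which was the shallowest library. It was 7.12-fold lower per the authors' deposited table (adjusted p = 0.00609), from 212 reads in the controls and 15 with IL-22, with a 95% counting interval of 4.28 to 13.1 for the count ratio.

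Of the 31-base words of Slc22a13, 41.5% also occur in Slc22a13b-ps, so that reads may be split between the copies. The listed gene 9330176C04Rik, which RefSeq names Slc22a13b and which has no solute carrier symbol in the list, was 4.13-fold lower per the authors' deposited table (adjusted p = 0.00236). Its mean there was 8.79 ± 0.424 RPM in the controls and 2.13 ± 0.457 RPM with IL-22.

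Among the 5 organic anion genes, 4 were lower. Slc17a4 (Entrez 319848), a carrier of phosphate and organic anions, was by far the most abundant of them, at 76.9, 77.4, 85.8 and 80.9 RPM in the controls and 31.1 and 37.5 RPM with IL-22. The controls varied little, and the decrease was 2.34-fold in the authors' deposited table (log2 -1.22 ± 0.14, adjusted p = 0.00136).

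Slc17a4 lies in a row with Slc17a1 and Slc17a3 on chromosome 13, family members whose human counterparts carry urate. Slc17a1 stood at 2.84, 4.06, 3.65 and 2.96 RPM in the controls and at 1.39 and 1.84 RPM with IL-22. Slc17a3 stood at 1.04, 0.823, 1.09 and 1.19 RPM in the controls and at 0.431 and 0.502 RPM with IL-22. The 3 neighbours were lower by similar ratios, at 2.34-fold, 2.09-fold and 2.22-fold for Slc17a4, Slc17a1 and Slc17a3 in the authors' deposited table, and 2.09-fold and 2.22-fold had adjusted p-values of 0.0189 and 0.0109. The call of Slc17a1 was lost without either IL-22 library, the second or the third deepest control, and that of Slc17a3 without the deeper IL-22 library.

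Slc13a2 (Entrez 20500, chromosome 11) encodes the sodium-coupled carrier of citrate and other dicarboxylates. It stood at 7.24, 6.33, 8.46 and 4.81 RPM in the controls and at 1.72 and 0.703 RPM with IL-22. The IL-22 libraries differed from each other more than in most carriers, and both were below the lowest control. The decrease was 5.53-fold in the authors' deposited table (log2 -2.47 ± 0.63, adjusted p = 0.0123), and its call was lost without the shallower IL-22 library. Without the deeper one the log2 ratio was -3.26. The antisense gene Slc13a2os covers 632 of its exon bases, and its reads cannot be told apart from those of Slc13a2 if counting ignored the strand.

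The exception in the group was Slc17a9, the gene of the carrier that loads nucleotides such as ATP into vesicles. It stood at 0.273, 0.142, 0.328 and 0.309 RPM in the controls and at 0.832 and 0.569 RPM with IL-22. It was 2.66-fold higher per the authors' deposited table (adjusted p = 0.0148), on 31 reads in the controls and 44 with IL-22, with a 95% counting interval of 1.71 to 4.55 for the count ratio. Its call was lost without the deeper IL-22 library.

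The nucleoside family showed opposite changes in its 2 listed genes. Slc28a1 (Entrez 434203, chromosome 7) encodes the sodium-coupled carrier of pyrimidine nucleosides. It stood at 3.14, 2.24, 2.48 and 1.99 RPM in the controls and at 0.185 and 0.0669 RPM with IL-22. The decrease was 19.6-fold in the authors' deposited table (log2 -4.29 ± 0.69, adjusted p = 0.00587), the largest of the 32 in either direction. With IL-22 it had 6 and 2 reads, against 307 over the controls, and the counting interval of the count ratio was 9.84 to 45.9. The size rests on few reads, with a log2 ratio of -5.20 without the deeper IL-22 library and of -3.74 without the shallower one.

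Slc28a3 (Entrez 114304, chromosome 13), whose product carries both purine and pyrimidine nucleosides, stood at 15.4, 13.8, 16.1 and 12.0 RPM in the controls and at 32.8 and 28.1 RPM with IL-22. Every IL-22 value exceeded the highest control. It was 2.13-fold higher per the authors' deposited table (log2 1.09 ± 0.15, adjusted p = 0.00331), and its call was lost without the deeper IL-22 library. Summed over both genes, nucleoside carriers held 16.8 RPM in the control means and 30.6 RPM in the IL-22 means, most of it Slc28a3.

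Of the 3 vitamin carriers, 2 were lower. Slc23a1 (Entrez 20522, chromosome 18), the sodium-coupled carrier of ascorbate, stood at 1.80, 2.33, 2.19 and 1.41 RPM in the controls and at 0.400 and 0.602 RPM with IL-22. The groups did not overlap, and it was 3.85-fold lower per the authors' deposited table (adjusted p = 0.0125). Slc46a1, the proton-coupled folate carrier of the upper small intestine, stood at 4.16, 4.34, 3.94 and 4.46 RPM in the controls and at 2.62 and 1.54 RPM with IL-22.

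The controls of Slc46a1 lay close together while its IL-22 libraries were apart, and the decrease was 2.03-fold in the authors' deposited table (adjusted p = 0.00698), just inside the 2-fold threshold. Slc23a1 lost its call without either IL-22 library, and Slc46a1 without the shallower IL-22 library or the shallowest control. Slc19a3, the gene of a thiamine carrier, rose. It stood at 0.656, 0.596, 0.438 and 0.486 RPM in the controls and at 1.72 and 1.44 RPM with IL-22, which was 2.91-fold higher per the authors' deposited table (adjusted p = 0.0027).

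The ion and metal families held 1 increase each. Slc9a3 (Entrez 105243, chromosome 13) encodes NHE3, the brush-border sodium/proton exchanger through which much of the sodium is absorbed. It stood at 16.5, 14.3, 15.3 and 11.1 RPM in the controls and at 59.4 and 47.2 RPM with IL-22. Both IL-22 libraries were far above all controls, and the increase was 3.73-fold in the authors' deposited table (log2 1.90 ± 0.20, adjusted p = 0.00239).

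Slc40a1 (Entrez 53945, chromosome 1) encodes ferroportin, the basolateral exporter of iron. It stood at 5.14, 8.68, 3.98 and 9.32 RPM in the controls and at 16.8 and 20.9 RPM with IL-22. The controls fell into a lower and a higher pair that depth does not order, and both IL-22 values were above the highest of them. The increase was 2.78-fold in the authors' deposited table (log2 1.48 ± 0.32, adjusted p = 0.00883), and its call was lost without the shallower IL-22 library.

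The other 2 ion carriers were lower. Slc4a5, a sodium-coupled bicarbonate carrier, stood at 34.4, 31.1, 33.8 and 27.9 RPM in the controls and at 12.0 and 11.3 RPM with IL-22, and was 2.73-fold lower per the authors' deposited table (adjusted p = 0.0027). Slc34a2, the sodium/phosphate carrier of the intestinal brush border, stood at 4.95, 6.92, 5.91 and 6.14 RPM in the controls and at 2.49 and 2.85 RPM with IL-22. Neither gene's groups overlapped, and Slc34a2 was 2.24-fold lower per the authors' deposited table (adjusted p = 0.00828).

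The remaining 4 carriers were all lower. Slc27a2 (Entrez 26458, chromosome 2) encodes a fatty acid transport protein that is also an acyl-CoA synthetase of very long chains. Its mean was 129.6 ± 7.03 RPM in the controls and 38.8 ± 0.282 RPM after IL-22, which is 3.34-fold lower per the authors' deposited table (adjusted p = 0.003). The IL-22 libraries held 39.1 and 38.5 RPM. The opposite-strand gene model Gm26697 covers 419 of its exon bases.

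Slc16a12, of the monocarboxylate family and known in humans for creatine transport, stood at 23.0, 21.8, 18.4 and 20.9 RPM in the controls and at 8.22 and 10.4 RPM with IL-22. It was 2.26-fold lower per the authors' deposited table (adjusted p = 0.00413). Among mitochondrial carriers, Slc25a45 stood at 32.2, 30.0, 33.7 and 25.0 RPM in the controls and at 15.2 and 10.1 RPM with IL-22.

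Slc25a42, whose product brings coenzyme A into mitochondria, stood at 14.4, 14.9, 14.1 and 14.7 RPM in the controls and at 8.35 and 6.02 RPM with IL-22. Their decreases were 2.38-fold for Slc25a45 (adjusted p = 0.00813) and 2.02-fold for Slc25a42 (adjusted p = 0.00232) in the authors' deposited table. Slc25a42 is the carrier nearest to the 2-fold threshold, and both mitochondrial carriers lost their call without the shallower IL-22 library.

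**Figure D3:**
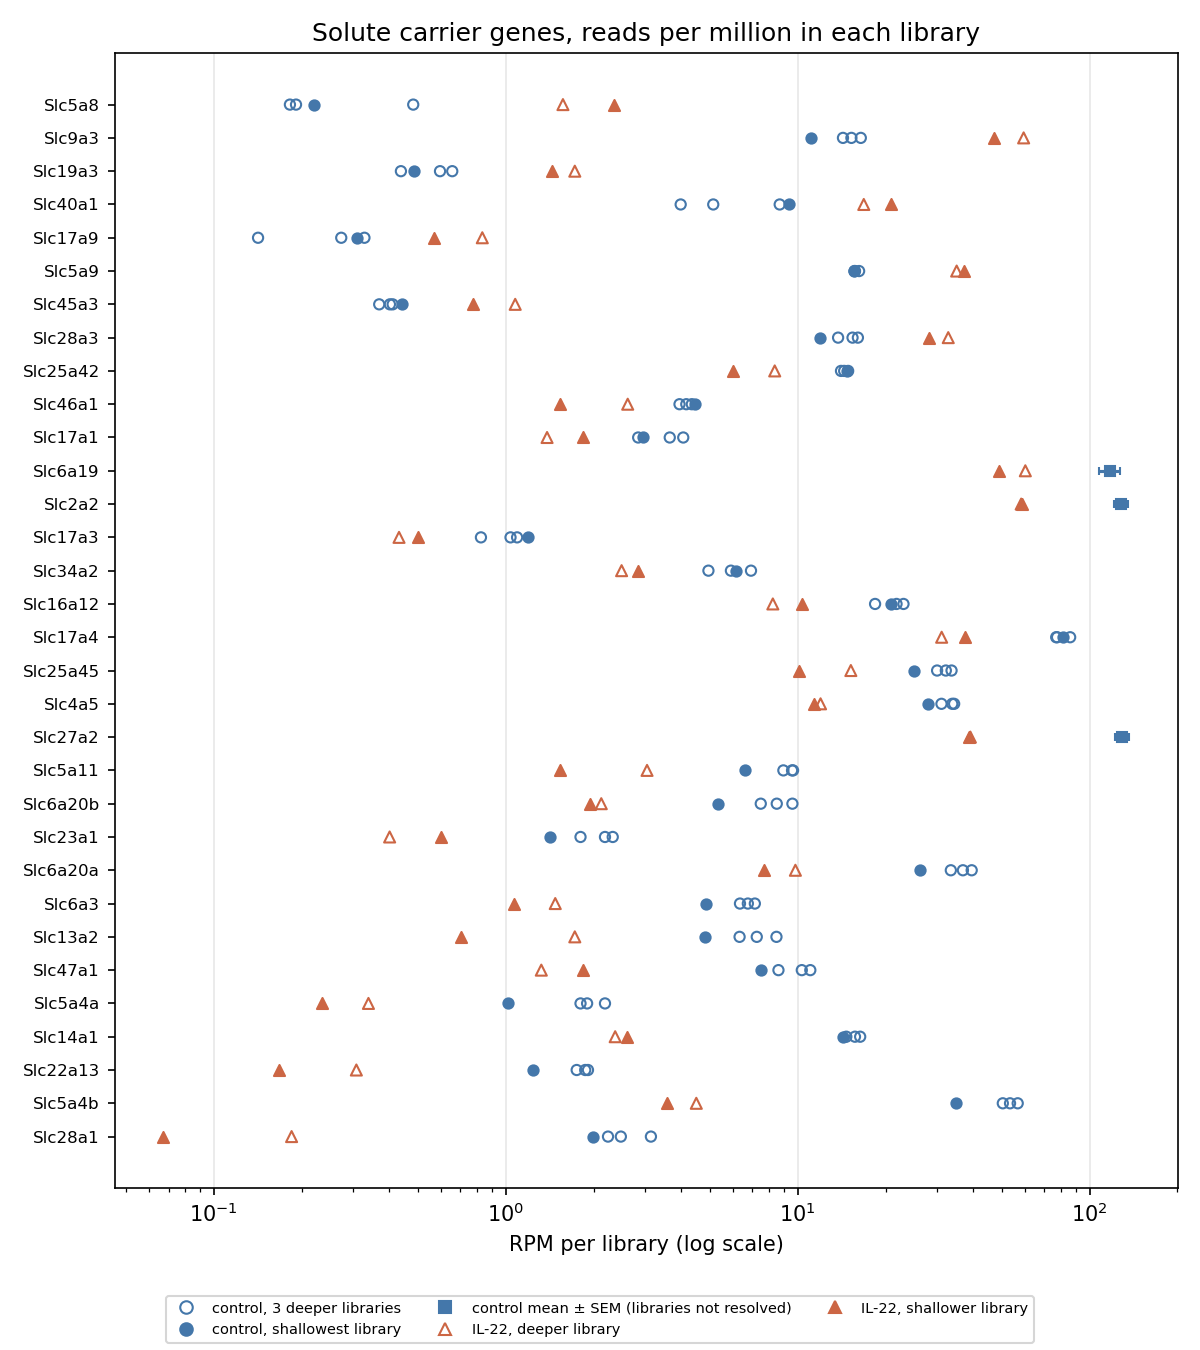
RPM of each solute carrier in each library (log axis), sorted from the largest increase to the largest decrease; circles are controls, triangles IL-22 libraries, and squares the control mean ± SEM of the 3 genes without recovered controls. The groups of the 29 resolved genes do not overlap, from Slc5a8 at 0.482 RPM or less in controls against 1.57 or more with IL-22 to Slc28a1 at 1.99 or more against 0.185 or less. The same holds for 577 of 577 listed genes with recovered values, so it is a property of the list.

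The spread among libraries varied by gene. The highest control was 1.04 to 2.64 times the lowest, with a median of 1.47, the extremes being Slc5a9 and Slc5a8. The higher IL-22 library was 1.06 to 1.49 times the other for the 8 higher carriers (median 1.25) and 1.00 to 2.76 times for the 24 lower carriers (median 1.31), with Slc28a1 the most uneven. The deeper IL-22 library was the higher one in 15 of 24 lower carriers (62.5%), beside 60% of all lower listed genes. Of the 6 listed enterocyte markers, 4 were also higher in the deeper IL-22 library, with the widest gap in Apoa4, an apolipoprotein of lipid export, at 470.1 and 236.3 RPM. Fabp2 and Lct were lower there, at 301.0 and 318.4 RPM for Fabp2 and 2.37 and 2.41 RPM for Lct. The part of these markers in the carrier values was not tested.

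Divided by the length of the longest coding transcript, the order of levels was led by 5 lower genes. In the control means, Slc27a2 stood at 44.4 RPM per kilobase, Slc17a4 at 36.9, Slc6a19 at 29.8, Slc2a2 at 23.0 and Slc5a4b at 15.3 RPM per kilobase. With IL-22 the level of Slc17a4 was 15.8, of Slc6a19 13.9, of Slc27a2 13.3, of Slc2a2 10.5 and of Slc9a3 10.4 RPM per kilobase. Slc9a3 had been at 2.79 RPM per kilobase in the controls, and Slc5a4b was at 1.26 with IL-22. The lowest level in the controls was that of Slc5a8, at 0.0505 RPM per kilobase.

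**Figure D4:**
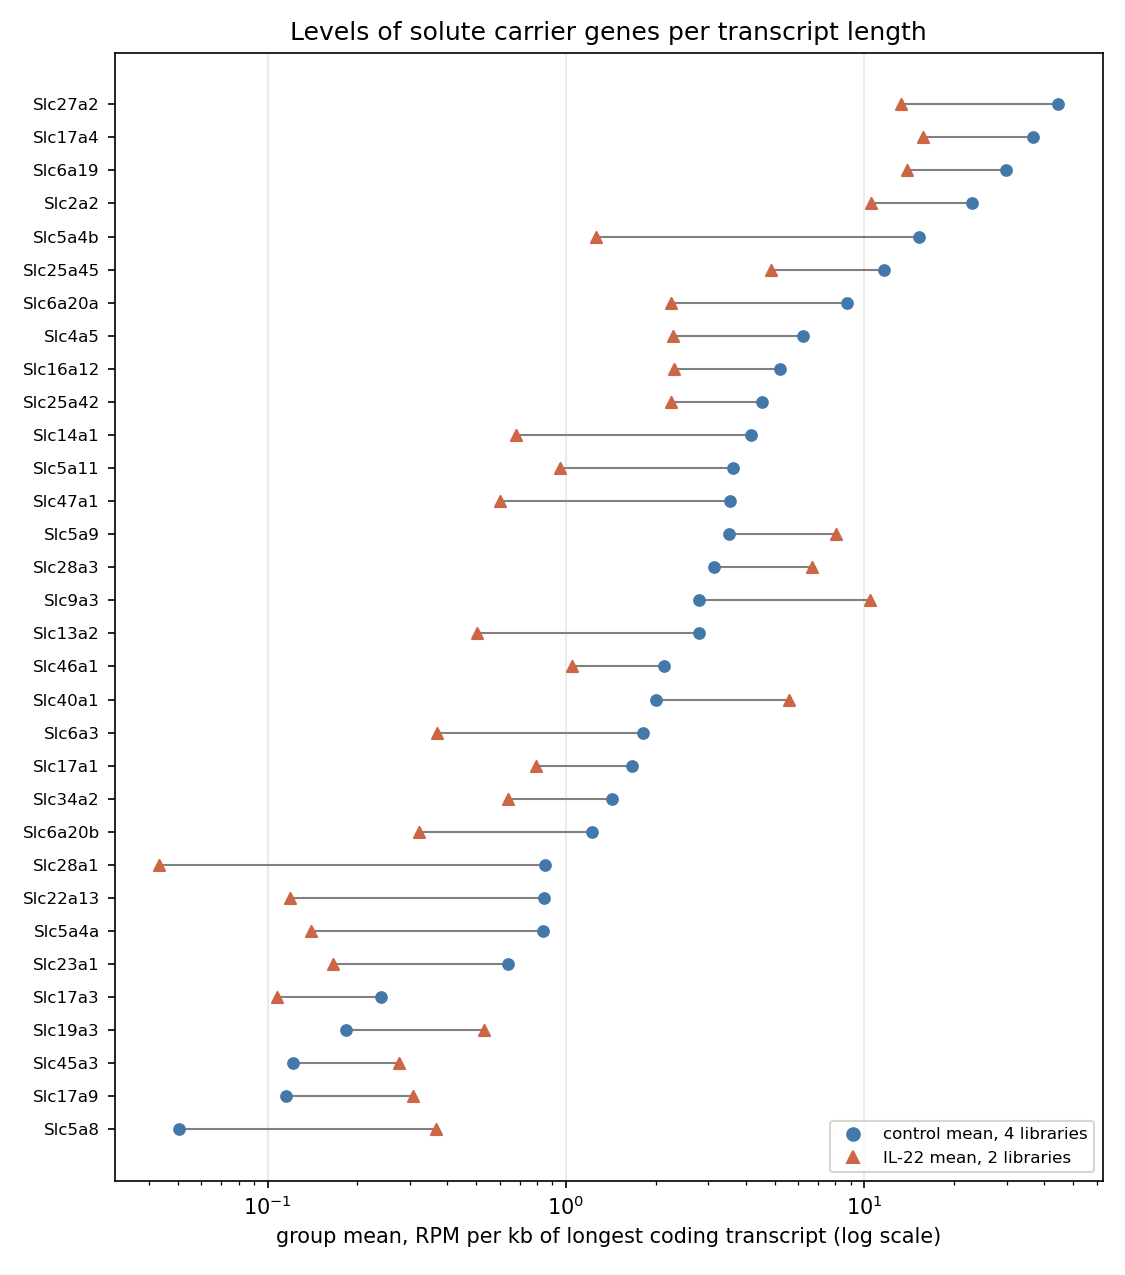
Level of each solute carrier in RPM per kilobase of its longest coding transcript (horizontal log axis), sorted by the control mean; circles are control means of 4 libraries, triangles IL-22 means of 2, and a line joins the means of a gene. Slc27a2 at 44.4 and Slc17a4 at 36.9 lead the controls, and Slc9a3 moves from 2.79 to 10.4.

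Families with several listed members were not uniform. Of 5 families with at least 2 listed genes, 3 held both directions: Slc5 (2 higher and 3 lower), Slc17 (1 higher and 3 lower) and Slc28 (1 and 1). The 4 genes of Slc6 and the 2 of Slc25 were all lower. The 5 adjacent pairs in the genome were all pairs of lower genes, in a list of carriers of which 75% are lower. They were Slc5a4b with Slc5a4a, Slc13a2 with Slc46a1, Slc17a3 with Slc17a1, Slc17a1 with Slc17a4, and Slc6a20b with Slc6a20a, with Slc17a1 in 2 of them, and 4 of the pairs are within a family.

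A list of 40 carriers that are textbook transporters of the small intestine had 9 listed genes, 3 higher (Slc9a3, Slc40a1 and Slc19a3) and 6 lower (Slc2a2, Slc6a19, Slc6a20a, Slc34a2, Slc46a1 and Slc23a1), with a median log2 ratio of -1.11. The 6 of 9 lower stand beside 61.3% lower over all listed genes, and the 9 of 40 listed beside 3.14% of protein-coding genes. The 40 were picked for the small intestine, with earlier results of these data known, and no test of the difference was made. The other 31 were not in the list. Of 18 partners and scaffolds of apical carriers, 2 were listed and both lower. Tmem27 (collectrin), which brings amino acid carriers of family 6 to the cell surface in kidney, was low in both groups, at 0.646 ± 0.0346 and 0.229 ± 0.106 RPM, and was 2.82-fold lower per the authors' deposited table (adjusted p = 0.00965).

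Of 30 channels and pumps of ion and water transport, 2 were higher and 4 lower. Trpm6, a magnesium channel, was 3.43-fold and Car4, a carbonic anhydrase of the cell surface, 7.96-fold higher per the authors' deposited table (adjusted p = 0.00315 and 0.00202). The water channel genes Aqp8 and Aqp3 were 20.6-fold and 6.53-fold lower there, the calcium-binding protein gene S100g 3.91-fold and the sodium channel subunit gene Scnn1a 2.13-fold, with adjusted p-values of 0.0106, 0.00597, 0.00596 and 0.00617 in the authors' deposited table. Aqp8 had 4 reads in both IL-22 libraries together. Of 15 metal handling partners, Steap4 and Lcn2 were listed as higher, from 2 and 6 reads in all controls together. Of 19 transcription factors of absorptive genes, Klf4 was 2.38-fold higher and Ppara 2.12-fold lower per the authors' deposited table (adjusted p = 0.00591 and 0.00102), and Isx was listed as higher from 1 control read.

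Of 49 cell type markers, 13 were listed, 10 of them lower and 3 higher, beside 61.3% lower and 38.7% higher over the whole list. Of 12 markers of absorptive enterocytes, 6 were listed and all lower, among them Alpi, Fabp2, Apoa4, Lct and Treh, by 2.26-fold, 2.72-fold, 2.07-fold, 13.1-fold and 3.07-fold in the authors' deposited table, with adjusted p-values of at most 0.0165. Of 5 tuft cell markers 3 were lower (Pou2f3, Trpm5 and Ptgs1), and of 6 Paneth cell markers 2 were higher (Mmp7 and Pla2g2a). Of 4 stem cell markers Olfm4 was lower and Prom1 higher. None of 7 goblet, 5 enteroendocrine, 3 proliferation or 7 markers of other cell types was listed, and no level is known for an unlisted marker. The part of these markers in the carrier values was not tested.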

How the data were processed

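RNA-seq was measured in 6 enteroid libraries, made from polyadenylated RNA with 15 PCR cycles, per the labels' protocols. Per the submitters' processing notes the tools were BWA 0.5.9 and Picard 1.58; no source used here gives a build, an annotation or a counter. The authors' deposited table holds group means in RPM with SEM, a fold or ratio (IL-22 over control), mean raw reads as a score of quality, and p-values; the unit RPM was inferred from the values, and a library with no read carries the value of 1 read. The authors' p-values were recomputed as a pooled-variance comparison with 4 degrees of freedom (largest difference 1.07e-06). Adjusted p-values are Benjamini-Hochberg values over only the 690 genes listed, each of which has at least 2-fold, a p of at most 0.0239 and at least 20 mean reads where higher.

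Both IL-22 values follow from mean and SEM and were whole reads within 0.01 in 593 of 593 genes under 2000 mean reads. For controls, all sets of 4 whole read counts matching mean and SEM were enumerated: 531 of 538 genes with 1 to 1200 mean reads had exactly 1. A count model was not the main test because only group means were deposited; the planned test therefore is the authors' own. Standard errors of log2 ratios were propagated from SEMs. Count ratios divide summed reads by depth, with exact 95% counting intervals, which describe counting error alone, because PCR copies are not separate molecules; 3 reads are 0.082 to 0.132 RPM in a control library. Adjustment over all protein-coding genes gave unlisted genes the largest possible p. Unique 31-base words came from GENCODE M21. limma 3.58.1 was run on log2(recovered RPM + 0.1) as an alternative, over only the listed genes with recovered values. Every carrier is named, and some genes of the other lists are not reported here; the members, lists and tests were chosen with earlier results of these data known. Python 3.11.15, numpy 2.4.6, scipy 1.17.1 and matplotlib 3.10.9 were used, and scripts were tested on simulated data.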

Additional observations from a re-analysis of the deposited data

Results flagged for a closer look

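Of 29 carriers whose 4 control values were recovered, 1 had a control library far from the other 3. Slc5a8 stood at 0.482 RPM in the second deepest control library and at 0.182, 0.191 and 0.221 RPM in the others. The gap to the nearest value was 0.872 of the range, above Dixon's 95% critical value for 4 values. Chance gives about 1 such gene in 20.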

How the results depend on the processing

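No carrier changed direction under the alternatives run, but this could hardly have come out otherwise. Most alternatives kept the same group means or added the same value to both. In the 29 carriers with recovered values, both IL-22 libraries lay beyond all 4 controls, as in 577 of 577 listed genes. Leaving out a library or using limma could therefore not reverse their direction. Of 8 higher genes, 1 passed when the adjustment covered all protein-coding genes, 1 with unequal variances, 5 with 1 RPM added to both means, 2 with 5 RPM added, 4 with at least 100 mean reads in the higher group and 1 at the 4-fold threshold. Of all 267 higher listed genes, 94, 122, 168, 90, 178 and 91 passed in the same order. Of 24 lower genes, 2 passed when the adjustment covered all protein-coding genes, 9 with 5 RPM added and 8 at 4-fold. Of all 423 lower listed genes, 55, 134 and 95 did. The log2 scale kept 8 and 24, and at least 10 mean reads in each group kept 6 and 21. Over the whole list these settings kept 253 and 423, and 213 and 376. Leaving out 1 control library in the least favourable way, with no test, left 7 higher and 20 lower genes at least 2-fold apart. Over the whole list 227 higher and 365 lower genes stayed so. Leaving out either IL-22 library left 1 treated library, and the calls lost are given with each gene. With recovered values, chosen after seeing the data, limma called 8 of 8 higher and 20 of 21 lower genes, Slc17a3 being lost, and leaving out each control library called 8 of 8 and 19 to 20 of 21. Of all listed genes with recovered values, limma called 227 of 232 higher and 322 of 345 lower genes. Leaving out each control library called 210 to 223 of these higher and 311 to 334 of these lower genes. Both alternatives were fitted and adjusted over only these genes. The authors had already selected them for small p-values and at least 2-fold, so the calls are no independent check. For Slc6a19, Slc2a2 and Slc27a2 no single control library could be left out, because their control values were not recovered. With unequal variances 7 of the higher genes and Slc25a42 and Slc46a1 lost their call. The causes were not tested. No paired analysis was possible because the deposited columns are group means and the recovered control libraries carry no mouse or well. Depth limits Slc28a1, Slc22a13 and Slc5a4a, with 8, 15 and 18 IL-22 reads, and Slc17a9 and Slc5a8, with 31 and 34 control reads.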
